A study of Sus scrofa with 10 samples.

Results

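Peripheral blood of newborn female Qingyu pigs (D0) was compared with that of female Qingyu pigs aged 7 days (D7), 2 pigs at each age. These 4 libraries were chosen by their age labels from the 10 libraries of the series. The other 6 came from pigs aged 28 days (D28), 180 days (D180) or 2 years (Y2), again 2 per age. Each pig gave 1 library, so no animal was followed over time, and the labels give no treatment or genotype that sets the ages apart. Strand-specific libraries were made from total RNA after removal of ribosomal RNA, and expression was given as FPKM, the fragments assigned to a transcript scaled to its length and to the mapped fragments of the same library. The comparison covered all 12354 mRNAs and all 5946 lncRNAs (long noncoding RNAs) of the tables, and 9735 of the mRNA rows (78.8%) could be given a gene symbol. With 2 pigs against 2, a two-sided exact permutation test cannot go below p = 0.333, so differences were tested with limma, which pools the spread between pigs over rows and over the 5 ages. The p-values measure only the spread between these animals, whose litters the labels do not give.

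Whole blood holds red cells, platelets and white cells together. Reticulocytes, the youngest red cells in the circulation, still carry globin, haem enzyme and ribosomal protein mRNAs and lose them as they mature. White cells answer interferons, the cytokines released on sensing viral nucleic acid, by transcribing antiviral genes such as the Mx and OAS families. In bulk blood, fewer cells of a type and less RNA per cell cannot be told apart. The labelled tissue was borne out by its markers in each of the 4 libraries, since HBB, the adult beta globin chain, had 470900 to 473200 FPKM at D0 and 408900 to 425000 FPKM at D7.

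The 10 mRNAs with the highest mean FPKM over all 10 libraries took 88.9% and 89.8% of the summed mRNA FPKM in the D0 pigs and 90.1% and 90.7% in the D7 pigs. All values were therefore examined as deposited and again after division by a median-of-ratios factor for each library, taken over the 11527 mRNAs above 0 in all 10 libraries. The factors were 0.437 and 0.455 at D0 and 0.501 and 0.539 at D7, so the scaled comparison moved every difference towards D0 by 0.22 on the log2 scale before the pseudocount. These factors lay below 1, so scaling also raised the values, and the 1 added before taking logs then shrank the differences of low rows less. Among 5973 mRNAs with at least 1 FPKM, the pigs of an age differed by a median of 0.093 at D0 and 0.10 at D7 on the log2 scale of deposited values. The D7 mean differed from the D0 mean by a median of 0.27.

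With the limits set to 0.05 for the adjusted p and 1.5 for the size of the log2 difference, 56 mRNAs (0.453% of those tested) were higher at D7 and 55 (0.445%) were lower. After scaling, 71 mRNAs (0.575%) were higher and 116 (0.939%) were lower, and 51 and 55 were called on both scales. By adjusted p alone, which is the sense of "rose" and "fell" from here on, 2284 mRNAs (18.5%) rose and 1101 (8.91%) fell as deposited. The scaled values gave 2197 (17.8%) and 2481 (20.1%). Counts within the gene lists below are to be read against these shares. Another scaling, in which the 10 highest mRNAs over all 10 libraries were removed and the rest of each library was set to one total, gave 122 higher and 32 lower calls, and 4718 and 772 by adjusted p alone. The balance of the directions thus depended on the scaling, with 50.5% of the calls higher at D7 as deposited, 38.0% after the factors and 79.2% after the removal. The median difference of all mRNAs was 0.06, -0.01 and 0.20 on these scales, against which the differences given here can be read. Every called mRNA had pigs that did not overlap between the ages, which was also true of 44.2% of all mRNAs in the higher and 22.1% in the lower direction as deposited, and of 31.6% and 34.7% after scaling.

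**Figure D1:**
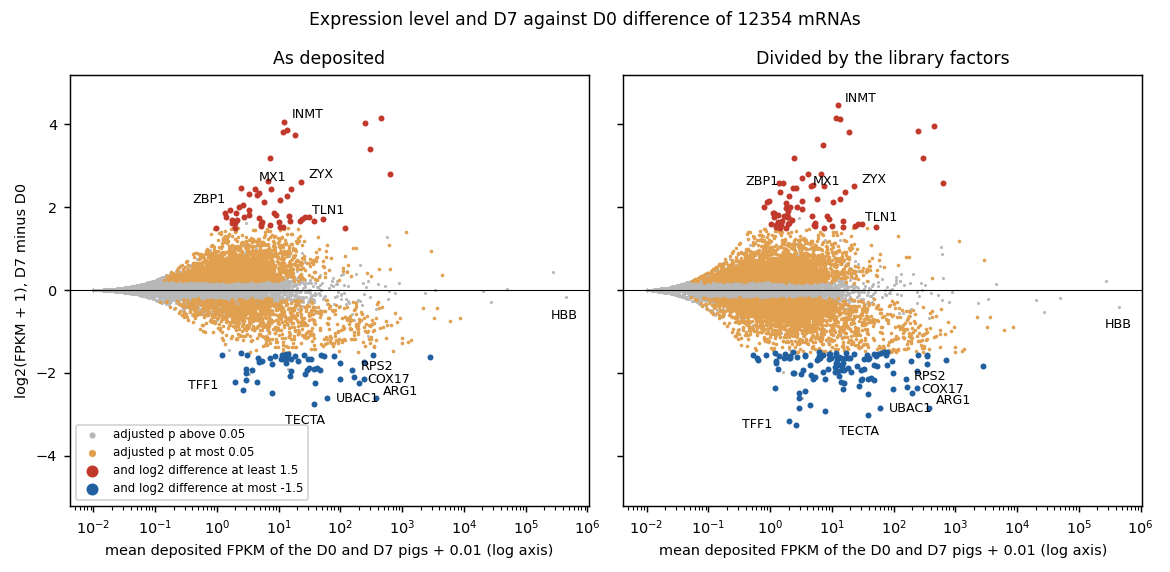
Difference between D7 and D0 on the log2(FPKM + 1) scale (vertical axis) against the mean deposited FPKM of the 4 pigs (horizontal log axis), 1 point per mRNA, as deposited (left) and scaled (right). Red and blue points are called mRNAs, of which there were 56 and 55 on the left and 71 and 116 on the right. The vertical axis leaves out 2 of them, the largest rise and the largest fall, which were all or none between the ages.

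Few mRNAs below 1 FPKM could pass the fold limit on this scale, so the levels of the called mRNAs in part reflect the added 1. The called mRNAs had a median level, taken as the mean of the 4 pigs, of 7.42 deposited FPKM among those higher at D7 and 18.4 FPKM among those lower, against 0.933 FPKM over all mRNAs. Of the 171 mRNAs above 100 FPKM, 61.4% fell and 12.9% rose as deposited, and 70.2% and 7.02% did so after scaling, with median log2 differences of -0.67 and -0.89. Of the 699 mRNAs at 10 to 100 FPKM, 38.3% fell and 29.5% rose as deposited. Among the 5103 mRNAs at 1 to 10 FPKM the order was the other way, with 29.0% higher and 10.97% lower as deposited, but 22.7% and 25.8% after scaling. Below 1 FPKM, where the added 1 shrinks differences, 1 of 6381 mRNAs was called higher and 0 lower as deposited, although 9.06% and 2.63% passed the adjusted p alone (limma).

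INMT, the methyltransferase that acts on indole amines such as tryptamine (chr18:42213335-42218175), rose most among the mRNAs with a symbol. Its deposited FPKM was 0.586 and 0.450 in the D0 pigs and 23.4 and 25.0 in the D7 pigs. Both D7 pigs lay far above both D0 pigs, the ratio of the means being 46.7, and the log2 difference was 4.05 ± 0.08 (SE, adjusted p = 2.2e-07). Scaling left the difference at 4.46. INMT was back at 1.51 and 1.36 FPKM in the D28 pigs.

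ZYX, the focal adhesion protein zyxin (chr18:6861072-6870256), went from 5.65 and 5.92 to 39.0 and 42.3 FPKM, a log2 difference of 2.62 ± 0.07 as deposited (adjusted p = 7.1e-07) and 2.50 after scaling. TLN1, the integrin activator talin, went from 11.4 and 11.5 to 39.6 and 42.6 FPKM. PLEC, the cytolinker plectin, had 0.460 and 0.447 FPKM at D0 and 3.31 and 3.58 at D7. In each of these the pigs of an age were close to each other and the ages did not overlap. AGTPBP1, which trims glutamates from tubulin tails (chr10:29440150-29590457), rose from 1.27 and 0.959 to 12.1 and 12.2 FPKM, a log2 difference of 2.64 ± 0.08 (adjusted p = 1.1e-06).

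TGFBI, a secreted matrix protein made by monocytes and macrophages among others (chr2:138191793-138225373), rose from 3.08 and 3.0 to 13.4 and 13.8 FPKM. SDS, the liver-type serine dehydratase, rose from 10.6 and 10.8 to 36.4 and 37.7 FPKM. The log2 differences were 1.85 ± 0.07 and 1.70 ± 0.07, and both mRNAs were at or below their D0 level again at D28, with 2.32 and 2.01 FPKM for TGFBI and 7.28 and 6.37 for SDS. On the scaled values 2 low mRNAs of the same shape joined the 15 largest rises. OLR1, the receptor for oxidised LDL, went from 0.345 and 0.604 to 3.80 and 3.72 deposited FPKM, and the D28 pigs had 0.558 and 0.601. RNF128, a ubiquitin ligase known from T cell anergy, went from 0.147 and 0.189 to 1.85 and 2.37 FPKM, and the D28 pigs had 0.151 and 0.105.

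**Figure D2:**
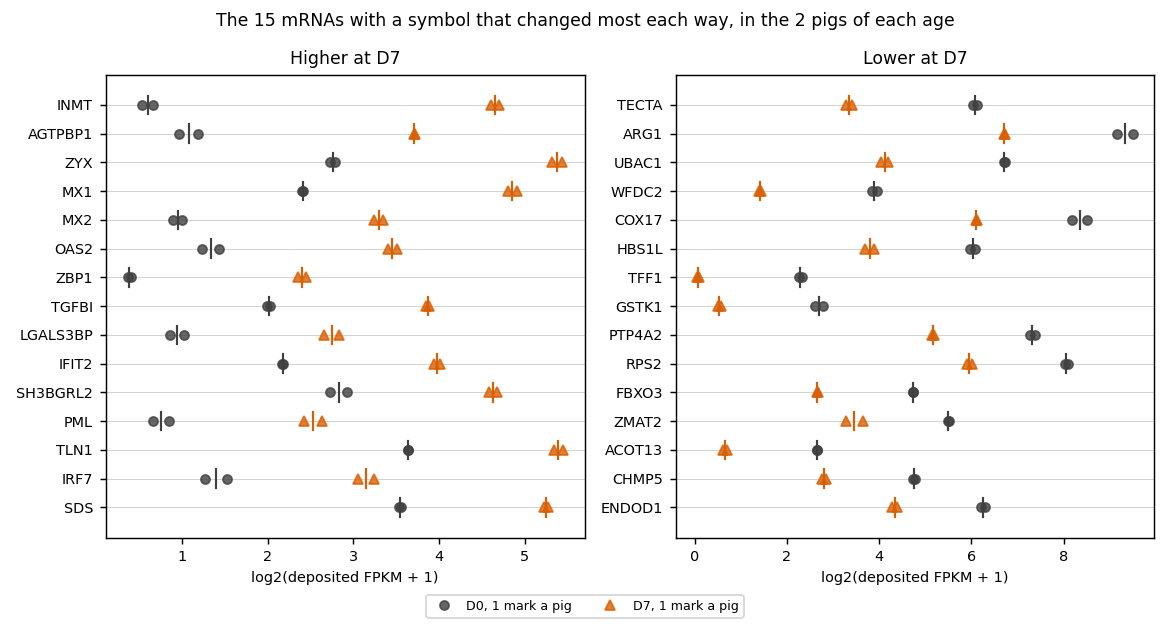
log2(deposited FPKM + 1) of the 15 mRNAs with a symbol that rose most (left) and fell most (right), with 1 mark per pig (circles D0, triangles D7) and a bar at the mean of the 2 pigs. In every row the marks of the ages are apart, and the distance between pigs of an age is small beside the distance between the ages.

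Interferon-response genes made up 8 of the 56 mRNAs called higher as deposited. MX1, a dynamin-like GTPase that blocks viral ribonucleoproteins (chr13:204843049-204868927), went from 4.33 and 4.29 to 27.1 and 29.0 FPKM, a log2 difference of 2.45 ± 0.09 (adjusted p = 1.5e-06). Its neighbour MX2 (chr13:204798633-204821612) went from 1.00 and 0.861 to 8.46 and 9.20 FPKM, a log2 difference of 2.35 ± 0.08. The ages did not overlap for either gene, and the scaled differences of 2.36 and 2.54 lay near the deposited ones.

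OAS2, the oligoadenylate synthetase that starts RNA decay by RNase L, rose from 1.71 and 1.36 to 9.60 and 10.4 FPKM. ZBP1, a sensor of Z-form nucleic acid, rose from 0.288 and 0.324 to 4.11 and 4.45 FPKM, which was a log2 difference of 2.01 ± 0.09 as deposited and 2.45 after scaling. IRF7, the transcription factor of the type I interferon loop, had 1.88 and 1.41 FPKM at D0 and 7.29 and 8.46 at D7. The 2 D7 pigs agreed closely for these genes and lay above both D0 pigs. IFIT2, PML and LGALS3BP complete the 8, with log2 differences of 1.80, 1.77 and 1.80.

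Of 50 interferon-response genes listed, 45 were measured, and 36 of them rose while 0 fell by adjusted p alone as deposited. After scaling 35 rose and 1, IFI6, fell, and after removal of the 10 highest mRNAs 40 rose and 0 fell. The median log2 difference of the 45 genes was 0.86 as deposited and 0.82 after scaling. STAT2 and IRF9, which carry the interferon signal to the nucleus, rose by 0.70 and 0.94 on the log2 scale. The members that did not pass as deposited included IFIT1 and ISG15. IFIT1 had 503 and 526 FPKM at D0 and 536 and 564 at D7, and ISG15 had 13.6 and 15.6 against 16.7 and 16.6 FPKM. IFI6 and these last 4 genes were named after their values were seen. Leaving out any single pig left 32 to 35 of the deposited rises.

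Receptors and adaptors of nucleic acid sensing moved the same way at lower levels. TLR9, the endosomal sensor of unmethylated DNA, had 0.0240 and 0.0566 FPKM at D0 and 0.772 and 0.841 at D7. TLR7, the endosomal sensor of single-stranded RNA, went from 0.690 and 0.595 to 1.44 and 1.57 FPKM, a log2 difference of 0.61 (adjusted p = 0.00052). MYD88, the shared adaptor of these receptors, went from 3.07 and 3.06 to 5.67 and 5.76 FPKM. The D7 pigs were above the D0 pigs in all 3. TLR3, the sensor of double-stranded RNA, had 0.288 and 0.206 FPKM against 0.446 and 0.507, and its log2 difference of 0.24 did not pass (adjusted p = 0.24). Of 20 measured Toll-like receptor genes, 12 rose and 0 fell as deposited, and 9 rose and 2 fell after scaling. The median was 0.33 and 0.24, and the 12 became 6 without the first D0 pig or without the second D7 pig.

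Genes that present antigen on MHC class II rose in part. SLA-DQB1, a class II beta chain, went from 3.45 and 3.49 to 11.2 and 10.7 FPKM (log2 difference 1.42 ± 0.07, adjusted p = 5.5e-06). CIITA, the master regulator of class II genes, went from 0.267 and 0.478 to 0.899 and 1.14 FPKM. SLA-DMA and SLA-DMB, which load the peptide, rose by 0.81 and 0.76 on the log2 scale. CD74, the invariant chain, had 46.8 and 49.3 FPKM at D0 and 45.6 and 50.5 at D7, so the ages overlapped, and its difference was 0.00 as deposited, -0.22 after scaling and 0.28 after the removal of the 10 highest mRNAs. Of 9 measured members 6 rose and 0 fell as deposited, and 6 rose and 1 fell after scaling.

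In the complement list 6 of 7 measured members rose and 0 fell on both scales, with medians of 0.74 and 0.76. C2, the protease of the classical and lectin pathway convertase, went from 0.122 and 0.188 to 1.38 and 1.45 FPKM. CFD, the protease of the alternative pathway, went from 23.7 and 23.8 to 39.0 and 41.8 FPKM. ITGB2, the beta chain of the complement receptors on leukocytes, went from 6.54 and 6.62 to 14.2 and 14.3 FPKM. In these 3 both D7 pigs lay above both D0 pigs. CFP was the member that did not pass.

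Markers of T cells and B cells rose in part by D7. The T cell list held 29 measured genes, of which 14 rose and 1, TBX21, fell as deposited, and 14 rose and 6 fell after scaling, 8 rising when any single pig was left out of the scaled values. Their summed FPKM was 87.2 and 99.5 at D0 and 120 and 129 at D7 as deposited. Among all mRNAs 18.5% rose and 8.91% fell as deposited, and 17.8% rose and 20.1% fell after scaling. Falls in the T cell list after scaling were thus about as frequent as over all mRNAs. TCF7, a transcription factor of naive and early T cells, rose from 5.65 and 6.24 to 14.1 and 15.3 FPKM (log2 difference 1.18 ± 0.08, adjusted p = 2.5e-05). CD4, the coreceptor of helper T cells, rose from 1.67 and 1.72 to 3.70 and 3.76 FPKM. The D7 pigs were above the D0 pigs in both, whereas CD3D, a chain of the T cell receptor complex, had 3.94 and 10.5 FPKM at D0 and 4.23 and 4.88 at D7, so that its ages overlapped. TBX21 and CD3D were named after their values were seen.

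Of 23 measured B cell markers 11 rose and 1, VPREB3, fell as deposited, and 12 rose and 2 fell after scaling. BANK1, a B cell scaffold protein, went from 1.28 and 1.19 to 3.09 and 3.96 FPKM, a log2 difference of 1.01 ± 0.11. VPREB3, a protein linked to the receptor of B cell precursors, went from 0.718 and 0.605 to 0.118 and 0.292 FPKM. The ages did not overlap for either gene. The count of 11 became 5 to 7 when any single pig was left out. Among 9 plasma cell markers 4 rose and 0 fell as deposited, JCHAIN, the joining chain of polymeric antibody, having 1.15 and 0.415 FPKM at D0 and 2.94 and 2.51 at D7, and the 4 became 2 without any single pig. After scaling 4 rose and 2, CD38 and SDC1, fell.

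Platelet and megakaryocyte markers rose in 12 of 20 measured members and fell in 0 as deposited, with a median of 0.52, and rose in 12 and fell in 2 after scaling, with a median of 0.41. MYL9, the myosin light chain of contractile cells, was the largest of them, with 9.81 and 10.5 FPKM at D0 and 34.4 and 34.2 at D7. TUBB1, the beta tubulin of platelets, went from 15.4 and 15.1 to 34.5 and 37.5 FPKM, and F13A1, the clotting transglutaminase, from 29.5 and 29.8 to 57.7 and 62.0 FPKM. The pigs of D7 exceeded those of D0 in all 3. PPBP, the most abundant platelet chemokine mRNA, had 110 and 114 FPKM at D0 and 92.2 and 101 at D7 and did not pass as deposited (adjusted p = 0.078). It was named after its values were seen. Scaling moved differences towards D0, which widened this drop of PPBP. The lowest log2 difference among the measured platelet markers was -0.21 as deposited and -0.43 after scaling.

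TECTA, which encodes a protein of the inner ear matrix, fell most among the mRNAs with a symbol as deposited, and TFF1 after scaling. TECTA had 64.7 and 68.8 FPKM at D0 and 8.69 and 9.57 at D7, a log2 difference of -2.74 ± 0.09 (adjusted p = 1.1e-06) as deposited and -3.02 after scaling. ARG1, the arginase of the urea cycle and of pig and human neutrophils (chr1:32006035-32028983), had 573 and 722 FPKM at D0 and 104 in each D7 pig, a log2 difference of -2.61 ± 0.13. Both genes were more than 5 times lower in either D7 pig than in either D0 pig.

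UBAC1, a subunit of a ubiquitin ligase, went from 104 and 105 to 15.5 and 17.2 FPKM. COX17, the copper chaperone of cytochrome c oxidase, went from 292 and 364 to 68.3 and 67.5 FPKM. RPS2, a protein of the small ribosomal subunit (chr3:39996179-40003110), went from 261 and 272 to 58.9 and 63.1 FPKM, a log2 difference of -2.11 ± 0.07. In all 3 the higher D7 pig stayed well below the lower D0 pig. Genes with many processed copies, such as RPS2 and the other ribosomal protein genes, may share reads with those copies, so their levels are uncertain.

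TFF1, a secreted peptide of mucous cells (chr13:205687558-205691512), fell 76.4-fold by the ratio of the means, at a low level. Its FPKM was 3.78 and 4.02 at D0 and 0.0638 and 0.0382 at D7, and the log2 difference was -2.22 ± 0.07 as deposited and -3.15 after scaling. The D28 pigs had 12.9 and 13.6 FPKM, above both earlier ages, and no older pig exceeded 0.0251 FPKM. GSTK1, a mitochondrial and peroxisomal glutathione transferase, went from 5.14 and 5.85 to 0.484 and 0.408 FPKM and had 4.10 and 4.59 at D28. SLC7A11, the cystine and glutamate exchanger, went from 5.33 and 5.09 to 0.602 and 0.710 FPKM and joined the largest falls on the scaled values, with a log2 difference of -2.49.

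Red cell genes fell as a group. Of 41 measured genes of red cell structure, red cell development and haem synthesis, 34 fell and 2 rose by adjusted p alone as deposited, and 37 fell and 2 rose after scaling, with medians of -0.64 and -0.90. With the 10 highest mRNAs removed 29 fell and 4 rose. Their summed deposited FPKM was 8786 and 9169 at D0 and 6058 and 6411 at D7. The list was not compared with mRNAs of like level. Of all mRNAs above 100 FPKM, 61.4% fell as deposited and 70.2% after scaling. XPO7, an exportin of terminal red cell maturation (chr14:6188040-6280034), went from 245 and 252 to 62.7 and 67.1 FPKM (log2 difference -1.92 ± 0.07, adjusted p = 1.3e-06). BPGM, which makes the 2,3-bisphosphoglycerate that lowers the oxygen affinity of haemoglobin (chr18:14555919-14593321), went from 149 and 157 to 42.2 and 46.4 FPKM.

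TRIM58, a ubiquitin ligase of late erythroblasts, went from 30.6 and 32.5 to 8.72 and 9.28 FPKM. For XPO7, BPGM and TRIM58 the higher D7 pig was far below the lower D0 pig. The pair that rose, named after their values were seen, were DMTN, the actin-binding dematin, from 119 and 120 to 240 and 244 FPKM, and CA1, carbonic anhydrase 1, from 3.03 and 3.27 to 6.23 and 6.45 FPKM. ALAS2, the rate-limiting enzyme of haem synthesis in red cells and the most abundant member, fell by 0.42 on the log2 scale, from 4102 and 4242 to 3015 and 3204 FPKM, and was also named after its values were seen.

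Of 10 listed haemoglobin chains, 4 were measured by symbol, the adult alpha chain not among them, and these 4 differed among themselves. HBZ, the embryonic zeta chain (chr3:41490758-41492883), had 351 and 382 FPKM at D0 and 107 and 113 at D7, a log2 difference of -1.73 ± 0.09 (adjusted p = 8.1e-06) as deposited and -1.95 after scaling. HBM, the mu chain next to it (chr3:41489312-41490110), went from 3945 and 4028 to 2380 and 2603 FPKM, a log2 difference of -0.68 (adjusted p = 0.0060, and 0.051 without the first D7 pig). HBB and HBQ1, the theta chain, did not pass on either scale. HBQ1 had 19.0 and 19.4 FPKM at D0 and 17.9 and 20.6 at D7, so its ages overlapped. The alpha and beta loci hold similar copies, and reads of one chain could have been counted for another.

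The list of cytosolic ribosomal protein genes was drawn from the symbols of the mRNA rows, so genes without such a row could not enter it. Of its 49 genes 38 fell and 0 rose as deposited, 42 fell and 0 rose after scaling, and 33 fell and 4 rose after removal of the 10 highest mRNAs. The median log2 difference was -0.78 as deposited and -1.0 after scaling. Here too no comparison with mRNAs of like level was made, and 61.4% of all mRNAs above 100 FPKM fell as deposited and 70.2% after scaling. RPLP1, an acidic protein of the ribosomal stalk, went from 483 and 526 to 187 and 203 FPKM, and RPS7 from 120 and 142 to 53.2 and 53.8 FPKM. The D7 pigs were below the D0 pigs in both. RPS24, named after its values were seen, went against the rest, with 280 and 408 FPKM at D0 and 788 and 843 at D7, but did not pass (log2 difference 1.27 ± 0.47, adjusted p = 0.084).

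Cell division genes fell in 11 of 35 measured members and rose in 0 as deposited, and fell in 21 and rose in 0 after scaling, the medians being -0.19 and -0.40. After the removal of the 10 highest mRNAs 8 fell and 5 rose. MCM2, a subunit of the replicative helicase, fell most, from 4.11 and 4.10 to 0.851 and 0.744 FPKM (log2 difference -1.51 ± 0.07, adjusted p = 5.5e-06). TOP2A, the topoisomerase of dividing cells, went from 2.77 and 3.12 to 1.42 and 1.52 FPKM, and CENPF, a kinetochore protein, from 7.22 and 7.71 to 3.42 and 3.77 FPKM. Both D7 pigs were below both D0 pigs in all 3.

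**Figure D3:**
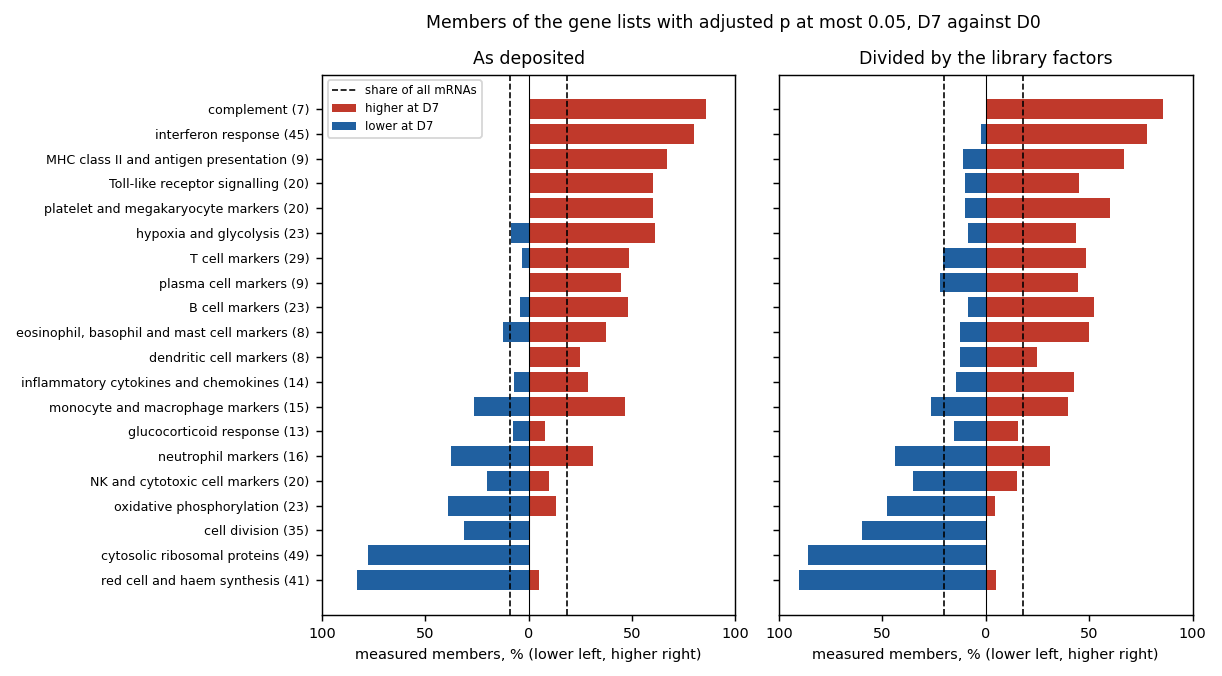
Share of the measured members of each gene list (number in parentheses) that rose to the right and fell to the left by adjusted p alone, as deposited (left panel) and scaled (right panel). Dashed lines mark the share of all mRNAs, 18.5% and 8.91% as deposited and 17.8% and 20.1% after scaling, and the 3 lists with under 7 measured members are left out. The interferon bar reaches 36 of 45 members on the left, and the red cell bar 34 of 41 on the other side.

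Myeloid markers moved both ways. Of 16 measured neutrophil markers 5 rose and 6 fell as deposited, and 5 and 7 after scaling, with medians of 0.06 and -0.03. S100A8, the small chain of calprotectin, went from 70.5 and 64.8 to 17.3 and 17.9 FPKM (log2 difference -1.88 ± 0.12, adjusted p = 1.7e-05), and S100A12, another calcium-binding alarmin, from 5.95 and 9.62 to 2.77 and 3.15 FPKM. MMP9, the gelatinase of neutrophil granules, went the other way, from 0.315 and 0.382 to 1.82 and 2.47 FPKM. The ages did not overlap for any of these 3. The summed FPKM of the list fell from 712 and 862 to 214 and 221, most of it ARG1.

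Of 15 measured monocyte and macrophage markers 7 rose and 4 fell as deposited, and 6 and 4 after scaling. CSF1R, the receptor of the macrophage growth factor, went from 1.10 and 1.31 to 3.62 and 3.68 FPKM, and CLEC7A, the beta-glucan receptor, from 0.505 and 0.419 to 2.54 and 2.38 FPKM. LYZ, the antibacterial enzyme lysozyme, went from 70.6 and 81.0 to 31.5 and 34.2 FPKM, and C1QC, a chain of complement C1q, from 0.593 and 0.548 to 0.0620 and 0.0278 FPKM. The D7 pigs lay above the D0 pigs in the first pair and below them in the second.

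Natural killer and cytotoxic cell markers fell in 4 and rose in 2 of 20 measured rows as deposited, and fell in 7 and rose in 3 after scaling. The median was -0.06 and -0.20, and it turned to 0.07 with the 10 highest mRNAs removed. Over all mRNAs, 18.5% rose and 8.91% fell as deposited, and 17.8% rose and 20.1% fell after scaling. Rises in this list were thus no more frequent than over all mRNAs. XCL1, a chemokine of these cells, went from 1.51 and 1.83 to 0.505 and 0.496 FPKM, and KLRK1, the activating receptor NKG2D, from 1.90 and 1.56 to 0.607 and 0.725 FPKM. IL2RB, the shared receptor chain for IL-2 and IL-15, rose from 1.80 and 2.11 to 3.36 and 3.69 FPKM. No age overlapped another in these 3 genes. Members of the red cell, platelet and white cell marker lists passed the test in the counts given, and their part in the results for single genes was not tested.

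Glycolytic and hypoxia-response genes rose in 14 and fell in 2 of 23 measured members as deposited, and in 10 and 2 after scaling, where 3 rose without the first D7 pig and 4 without the second D0 pig. ALDOA, the muscle and red cell aldolase, went from 59.7 and 60.8 to 167 and 180 FPKM, and PKM, a pyruvate kinase, from 9.71 and 13.2 to 22.0 and 24.2 FPKM. MXI1, a MAX-binding repressor, fell from 54.9 and 59.9 to 24.4 and 17.9 FPKM. Nuclear genes of oxidative phosphorylation fell in 9 and rose in 3 of 23 measured members as deposited, and in 11 and 1 after scaling, with medians of -0.01 and -0.19 that turned to 0.14 with the 10 highest mRNAs removed. COX5B, a subunit of cytochrome c oxidase, went from 28.8 and 29.8 to 13.2 and 14.8 FPKM.

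The remaining lists had few measured members that passed. Inflammatory cytokines and chemokines rose in 4 and fell in 1 of 14, IL18, a cytokine released by inflammasomes, going from 1.38 and 1.32 to 4.73 and 4.59 FPKM and IL1R2, the decoy receptor of IL-1, from 2.75 and 2.70 to 0.788 and 0.697 FPKM. Eosinophil, basophil and mast cell markers rose in 3 and fell in 1 of 8, dendritic cell markers rose in 2 and fell in 0 of 8, and genes of the fetal stage rose in 2 and fell in 0 of 6. Glucocorticoid-response genes rose in 1 and fell in 1 of 13, and collagens and matrix genes rose in 1 and fell in 0 of 3. These counts are of deposited values, on which 18.5% of all mRNAs rose and 8.91% fell. After scaling, where 17.8% rose and 20.1% fell, the same lists in this order had 6 and 2, 4 and 1, 2 and 1, 2 and 0, 2 and 2, and 1 and 1.

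Besides HBB, the named rows among the 10 highest were TPT1, the translationally controlled tumour protein, FTL, the ferritin light chain, and ATP5IF1, the inhibitor of the mitochondrial ATP synthase. TPT1 fell from 10300 and 11140 to 6620 and 6809 FPKM and FTL from 7212 and 7891 to 4417 and 4613 FPKM, log2 differences of -0.67 and -0.74. ATP5IF1 rose from 3722 and 4157 to 4852 and 5260 FPKM as deposited (log2 difference 0.36, adjusted p = 0.047, and 0.073 to 0.25 without any single pig), and its scaled difference of 0.14 did not pass. The other 6 rows had no symbol.

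A pair of these rows was all or none. ENSSSCG00000034995 had 112900 and 123700 FPKM at D0 and 0 and 0.0145 FPKM at D7. ENSSSCG00000038379 had 0.00306 and 0.00837 FPKM at D0 and 34460 and 31600 FPKM at D7. The ages were thus mirrored, and so were the Y2 pigs, where the first had 99990 and the second 0 FPKM of ENSSSCG00000034995 and 0.00732 and 18590 FPKM of ENSSSCG00000038379. Both D28 and both D180 pigs had the pattern of the D0 pigs. The log2 differences were -16.84 ± 4.09 and 15 ± 3.48 as deposited (adjusted p of 0.016 and 0.013), and without any single pig neither passed (adjusted p of 0.070 to 0.074 and 0.060 to 0.064). How reads were divided between these rows cannot be read from FPKM, so the values may not be levels of separate RNAs, and the cause of the pattern was not tested.

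Later ages were compared with D7 in the same fits, so these contrasts share the D7 libraries with the comparison above and are given as levels. As deposited, the 56 mRNAs called higher at D7 had medians of 1.64, 13.5, 14.1, 59.6 and 28.4 FPKM from the youngest to the oldest age, and 40 of the 56 were highest at D180. That was also the age of the highest value for 11162 of all 12354 mRNAs. The library factors at D180 were 2.87 and 3.03. After scaling, the 71 higher mRNAs had medians of 1.45, 11.14, 8.97, 9.67 and 8.44, and 32 of them were highest at D7. Of all mRNAs 15.9% were highest at D7 on that scale, but mRNAs chosen as higher at D7 than at D0 cannot be highest at D0, so the shares are not compared. The 116 mRNAs lower at D7 after scaling had medians of 46.4, 11.8, 13.5, 3.23 and 4.90, and 109 were highest at D0, as were 28.4% of all mRNAs. The 55 lower mRNAs as deposited had medians of 28.3, 7.13, 16.4, 10.9 and 9.62 FPKM, and 42 were highest at D0, as were 2.95% of all mRNAs, again after a choice that favours D0.

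Single genes took different courses after D7. MX1 had 22.3 and 26.4 FPKM at D28, 137 and 134 at D180 and 20.7 and 18.8 at Y2 as deposited. Against D7, the scaled log2 difference of MX1 was -1.10 at D28 (adjusted p = 4.9e-05), -0.22 at D180 (adjusted p = 0.10) and -2.04 at Y2. Its lowest later value, 18.8 FPKM, was above both D0 pigs. INMT was chosen for its rise at D7, so a drop after D7 is favoured by that choice, and its scaled log2 differences against D7 were -4.28 at D28, -4.03 at D180 and -2.48 at Y2.

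TGFBI fell back by 3.09 at D28 and was 0.97 and 1.304 below D7 at D180 and Y2 on the scaled log2 scale. PML differed from D7 on that scale by -0.01 at D28 and 0.07 at D180, which did not pass, and by -0.54 at Y2 (adjusted p = 0.0015). AGTPBP1 differed from D7 by 0.08, -0.05 and 0.05 at the 3 later ages as deposited, none of which passed, but fell by 0.79, 2.29 and 1.45 after scaling. Among the genes that fell, TECTA was 3.22 and BPGM 4.09 below D7 at D180 on the scaled log2 scale, HBZ was 5.90 below, and ARG1 was 0.91 above D7 at D28 and 2.93 below it at D180. TFF1 was 3.72 above D7 at D28 only, its differences at D180 and Y2 not passing.

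**Figure D4:**
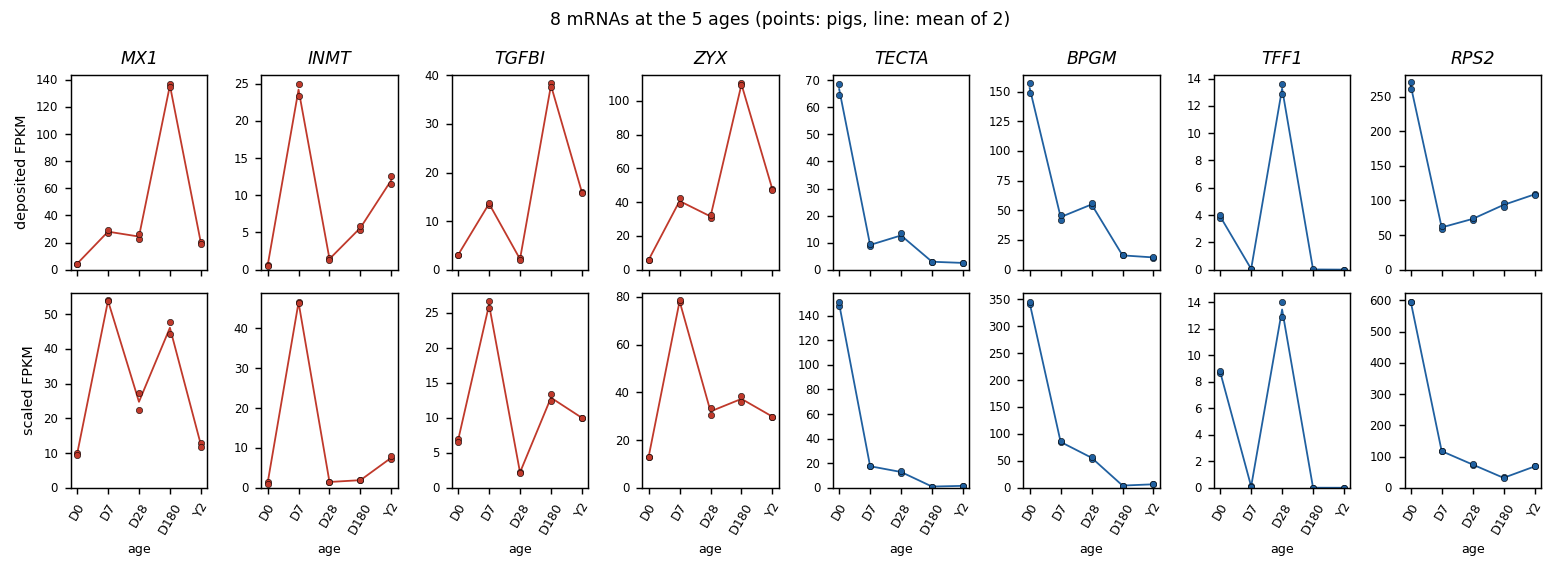
FPKM as deposited (top) and scaled (bottom) of 4 mRNAs that rose (red) and 4 that fell (blue) at D7, at the 5 ages set at equal distances, with 1 point per pig and a line through the means of 2 pigs. INMT and TGFBI drop back at D28, TFF1 peaks at D28, and MX1 and ZYX are highest at D180 as deposited but at D7 after scaling.

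Among the lncRNAs, 7 (0.118% of those tested) were called higher and 13 (0.219%) lower at D7 as deposited, and 13 (0.219%) and 29 (0.488%) after scaling. By adjusted p alone 52 (0.875%) rose and 59 (0.992%) fell as deposited, and 360 (6.05%) and 245 (4.12%) did so after scaling. Scaling also raised the values of these 4 libraries, so that the added 1 shrank low rows less. Its part in these counts was not tested. With 0.1 added instead of 1, 272 rose and 87 fell as deposited, and 472 and 212 after scaling. The pigs of the ages did not overlap in any called lncRNA, which held for 33.8% and 9.97% of all lncRNAs in the higher and lower direction as deposited and for 29.3% and 12.1% after scaling. The level was low, with a median of 0.0961 FPKM over the 4 pigs, and 0 of the 5778 lncRNAs below 1 FPKM were called as deposited, with 0.623% and 0.588% of them passing by adjusted p alone. A fit of the D0 and D7 libraries alone called 3 higher and 6 lower. A listed span under 200 bases stood against 1233 lncRNAs (20.7%), so the listed positions need not cover a whole transcript.

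Transcripts of 1 locus share reads, so the split between them is uncertain. TCONS_00119399 and TCONS_00119400 lie on the minus strand inside LOC110260147, itself an lncRNA gene (chr3:118016880-118018031), 4994 bases from SDC1, the plasma cell syndecan. TCONS_00119399 went from 1.25 and 1.47 to 27.1 and 29.9 FPKM (log2 difference 3.64 ± 0.18, adjusted p = 0.00022) and TCONS_00119400 from 7.27 and 6.88 to 31.2 and 32.1 FPKM. The pigs of D7 exceeded those of D0 in both, and TCONS_00119399 was down to 1.55 and 0.751 FPKM at D28. SDC1 had 0.268 and 0.265 FPKM at D0 and 0.109 and 0.143 at D7, which did not pass as deposited but fell by 0.36 after scaling (adjusted p = 0.0017).

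A second locus held a rise and a fall. TCONS_00090324 (chr18:25539051-25539274, minus strand) went from 14.1 and 14.6 to 105 and 110 FPKM (log2 difference 2.82 ± 0.16, adjusted p = 0.00025) and had 1.81 and 2.08 FPKM at D28. TCONS_00090325 (chr18:25525187-25539274), which spans it, went from 10.5 and 8.20 to 0.0053 and 1.46 FPKM, a log2 difference of -2.71 ± 0.37 (adjusted p = 0.014, and 0.068 and 0.11 without the second and the first D0 pig). The D7 pigs were outside the D0 range in both. The nearest gene, FAM3C, lay 30082 bases away and its log2 difference of -0.08 did not pass.

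Among the lncRNAs called as deposited, the largest rise was that of TCONS_00195448 on the unplaced scaffold AEMK02000695.1 (bases 5763 to 6872), which was listed at 0 in both D0 pigs and at 56.5 and 7.40 FPKM in the D7 pigs. The D7 pigs were far apart, and the call (log2 difference 4.46 ± 0.77, adjusted p = 0.038) gave an adjusted p of 0.21 and 0.18 without the first and the second D0 pig. TCONS_00195430, on the same scaffold (bases 3734 to 6872), went from 8.81 and 12.8 to 105 and 109 FPKM and had 108 to 337 FPKM in the 6 older pigs. Its log2 difference was 3.21 ± 0.38 (adjusted p = 0.0081, and 0.053 and 0.059 without the first and the second D7 pig). After scaling it was 1.57 below D7 at Y2 (adjusted p = 0.039). TCONS_00195451, on the same scaffold (bases 5822 to 6872), was listed at 0 in both D0 pigs and at 31.2 and 138 FPKM in the D7 pigs, and its log2 difference of 6.06 as deposited did not pass (adjusted p = 0.086), while that of 6.99 after scaling did (adjusted p = 0.021).

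Of the lncRNAs that fell, TCONS_00195660 fell most. It lies on the plus strand of the mitochondrial genome (chrMT:720-2205) over a tRNA and an rRNA gene, and had 14.4 and 14.9 FPKM at D0 and 0.00231 and 0 FPKM at D7. TCONS_00113530 (chr3:128555141-128555611), with no gene of the annotation over it, had 6.87 and 8.41 FPKM at D0, was listed at 0 in both D7 pigs, and had 6.09 and 6.99 FPKM at D180 as deposited. Its scaled values were 15.7 and 18.5 at D0 and 2.12 and 2.31 at D180, so the D180 pigs then lay well below the D0 pigs. TCONS_00133417 and TCONS_00133416, in the lncRNA gene LOC100511509 (chr5:42308951-42314800), went from 42.2 and 43.5 to 5.44 and 6.43 FPKM and from 24.9 and 26.9 to 3.63 and 3.38 FPKM. The 4 log2 differences were -3.97, -3.11, -2.66 and -2.58, and the ages did not overlap in any of them.

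**Figure D5:**
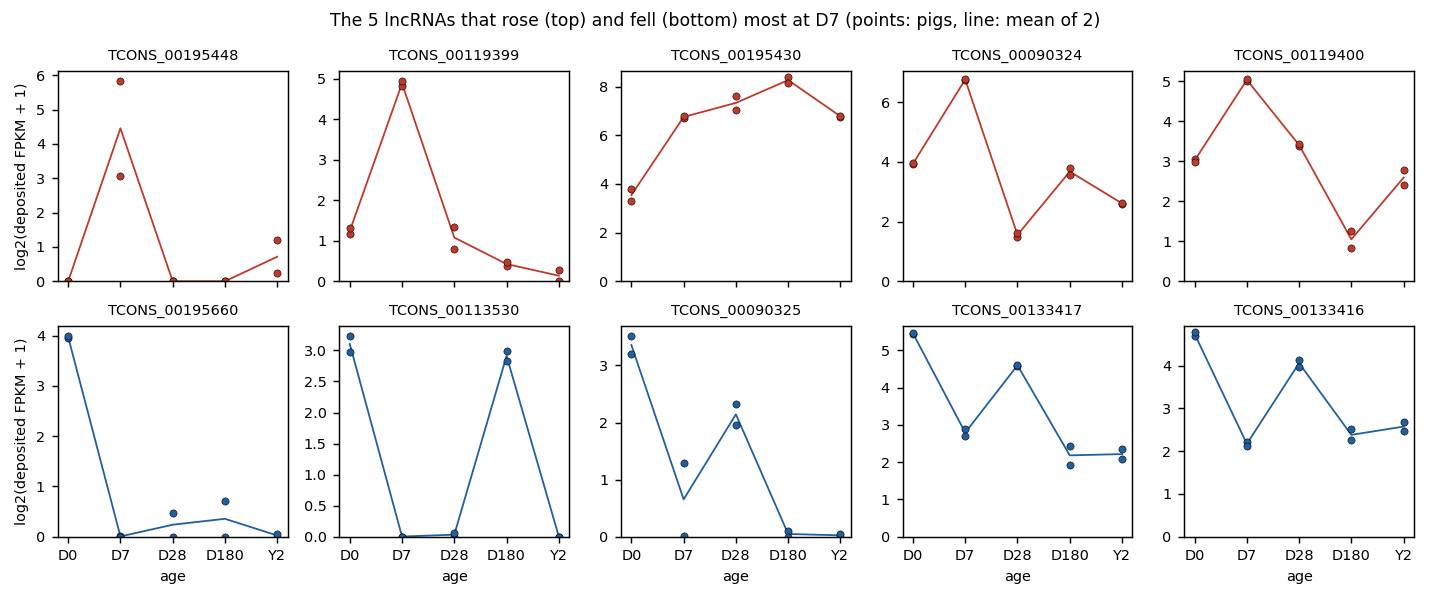
log2(deposited FPKM + 1) of the 5 lncRNAs that rose most (red, top) and the 5 that fell most (blue, bottom) between D0 and D7, at the 5 ages set at equal distances, with 1 point per pig and a line through the means of 2 pigs. TCONS_00119399, TCONS_00090324 and TCONS_00119400 peak at D7, while TCONS_00195430 stays near or above its D7 level on these deposited values.

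As deposited, 6 of the 7 higher lncRNAs were highest at D7, with medians of 1.36, 31.7, 1.41, 1.09 and 0.732 FPKM from D0 to Y2, and 11 of the 13 lower ones were highest at D0, with medians of 11.07, 0.922, 4.92, 0.751 and 1.78 FPKM. After scaling, 11 of the 13 higher lncRNAs were highest at D7 and 29 of the 29 lower ones at D0. Over all lncRNAs, 4.91% were highest at D7 and 6.61% at D0 as deposited, and 18.5% and 16.7% after scaling, which the choice of the called rows bars from a comparison.

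Of the lncRNAs called on either scale, 25 lay in or within 10000 bases of a protein-coding gene, a limit chosen after the values were seen, and for 18 of them the gene was measured. As deposited the gene passed in the direction of the lncRNA for 8, passed in the other direction for 2 and did not pass for 8, and after scaling the counts were 8, 3 and 7. These 18 lncRNAs stood beside 14 different genes, so some genes were counted for more than 1 lncRNA. Over all mRNAs, 18.5% rose and 8.91% fell as deposited, and 17.8% rose and 20.1% fell after scaling. TCONS_00111190 on the plus strand (chr3:71790369-71791532), within ADD2, the beta adducin of the red cell skeleton, fell from 3.96 and 3.59 to 0.484 and 0.774 FPKM, a log2 difference of -1.56 ± 0.10, and ADD2 fell by 1.18. TCONS_00128901 on the minus strand (chr4:95086271-95087831), within KCNN3, a calcium-activated potassium channel, was listed at 0 in both D0 pigs and had 1.96 and 2.12 FPKM at D7, and KCNN3 rose by 0.46 on the log2 scale. TCONS_00146821 (chr6:85534557-85536196), 4570 bases from RCC1, the exchange factor of RAN, fell from 70.5 and 79.6 to 13.8 and 14.2 FPKM, and RCC1 fell by 0.62. TCONS_00031342 (chr12:21863475-21863510), within CCR7, the homing receptor of naive T cells, went from 1.28 and 1.77 to 0.0224 and 0.0323 FPKM and was called lower after scaling only, while CCR7 rose by 0.40 as deposited and 0.25 after scaling. TCONS_00085386 (chr17:34827052-34828114), 7460 bases from TRIB3, a pseudokinase, fell from 12.1 and 10.04 to 1.71 and 1.44 FPKM, and TRIB3, with a difference of -0.04, did not pass. CCR7 and TRIB3 were named after their values were seen. TCONS_00086451 is named by the study and lies on the minus strand (chr17:52874827-52890259) within NFATC2, a transcription factor of T cell activation. It went from 0.134 and 0.195 to 0.628 and 0.707 FPKM. Its log2 difference was 0.52 ± 0.09 as deposited (limma, adjusted p = 0.041) and did not pass without any single pig. After scaling the difference of TCONS_00086451 was 0.74 ± 0.10 (limma, adjusted p = 0.0051). It was not called on either scale, as both differences were under the fold limit, but below 1 FPKM the added 1 shrinks differences. The study counts it as differentially expressed, describes a rise from D0 to D28 and checked its pattern by qRT-PCR. NFATC2 went from 0.603 and 0.783 to 2.15 and 2.28 FPKM, a log2 difference of 0.93 ± 0.08.

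Some of the most abundant lncRNA rows differed widely between pigs of an age. TCONS_00193537, on scaffold AEMK02000489.1 (bases 49028 to 49354), had 724 and 5.99 FPKM at D0 and 192 and 1135 at D7, and TCONS_00193545, with a listed span of 31 bases, had 0 and 1643 FPKM at D0 and 1.56 and 0 at D7. Both ages overlapped in these rows. TCONS_00193513 on the same scaffold (bases 51110 to 51310) had 106 and 92.8 FPKM at D0 and 713 and 741 at D7, and the ages did not overlap. Its log2 difference of 2.86 ± 0.82 did not pass as deposited (adjusted p = 0.18), and that of 2.65 ± 0.45 passed after scaling (adjusted p = 0.015), but not without any single pig (adjusted p = 0.061 to 0.13).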

How the data were processed

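Blood RNA of 10 pigs was sequenced on a HiSeq X series instrument, 1 library per pig. The authors called bases with CASAVA 1.8.2, aligned reads to Sscrofa11.1 with HISAT2 2.0.4, and deposited FPKM, from StringTie 1.3.3 for mRNAs. They merged lncRNA transcripts and tested them with Cufflinks 2.2.1. The tool behind the lncRNA FPKM is not given in the sources used here. Tables keep mRNAs above 0.5 and lncRNAs above 0.1 FPKM in some library. Reads per value are unknown.

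Here log2(FPKM + 1) was fitted with limma 3.58.1 (R 4.3.3, mean-variance trend) on 5 ages, with Benjamini-Hochberg adjustment over each table, as deposited and divided by median-of-ratios factors from the mRNA table. A fold change on this scale understates changes of low genes. Symbols and positions came from RefSeq Sscrofa11.1 and a gene name table. Python 3.11.15, numpy 2.4.6, pandas 2.3.3 and matplotlib 3.10.9 did the rest. The fit was tested on simulated data.

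Named mRNAs were the 15 with a symbol that rose and fell most on each scale, the 10 highest and up to 4 per list, and named lncRNAs the 5 each way, the 5 highest, genes beside them, and genes the study names. Members and lists were chosen with earlier results of these data known. Alternatives were another pseudocount, other fits, filters, fold limits and scalings, and each pig left out.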

Additional observations from a re-analysis of the deposited data

How the results depend on the processing

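Reads per value are unknown, so how far depth limits low rows, zeros and the courses over later ages was not tested. The first D180 pig gave 68.2% of its summed mRNA FPKM to the 10 highest mRNAs, well below the D0 and D7 shares given above. It had 11821 mRNAs above 0.5 FPKM, while the first D0 pig had 7783 and the second D7 pig 8510. For lncRNAs above 0.1 FPKM the counts of these 3 pigs were 4626, 2137 and 3010. In addition, 2 pigs per age limit every difference. With a pseudocount of 0.1, 276 mRNAs were higher and 139 lower as deposited, 293 and 286 after scaling, and 89 and 72 lncRNAs as deposited and 228 and 169 after scaling, with 272 lncRNAs rising by adjusted p alone as deposited. With the fold limit set on the ratio of mean FPKM, which does not shrink low rows, the counts were 362 and 164 mRNAs as deposited, 374 and 321 after scaling, 47 and 48 lncRNAs as deposited, and 244 and 185 after scaling. With only the D0 and D7 libraries, which leaves fewer samples for the spread, 3 and 6 lncRNAs were called as deposited and 2 and 3 after scaling, and by adjusted p alone 15 and 11, and 2 and 3. A minimum of 1 FPKM in at least 2 libraries, which tests fewer rows, gave 11 higher lncRNAs, 98 rising by adjusted p alone, and 200 and 136 after scaling. With the 10 highest mRNAs removed, 122 mRNAs were higher and 32 lower (4718 and 772 by adjusted p alone), 13 lncRNAs were higher and 15 lower, and 320 rose and 88 fell by adjusted p alone. The directions of CD38 (0.22, adjusted p = 0.027), CD74 (0.28, adjusted p = 0.011), FCER1A (0.14, adjusted p = 0.17) and TIMP1 (0.38, adjusted p = 0.030) turned to higher at D7 there, for FCER1A and TIMP1 against the scaled values. The cause was not tested for the changes under the pseudocount and the removal.

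Leaving out single pigs gave 1471 (without the second D7 pig) to 1847 mRNAs rising by adjusted p alone as deposited, 1490 of them without the first D0 pig. For lncRNAs by adjusted p alone the ranges were 26 (without the first D0 pig) to 75 (without the second D7 pig) rising and 27 (without the first D7 pig) to 103 (without the second D0 pig) falling as deposited, and 203 (without the first D0 pig) to 419 (without the first D7 pig) rising after scaling, with 7 (without the first D0 pig) to 19 (without the first D7 pig) called higher after scaling. Same-numbered pigs share only a number: their deviations from the mean of D0 and of D7 had a correlation of 0.028 over mRNAs and 0.076 over lncRNAs. The fit with that number as a block called 56 mRNAs higher and 55 lower as deposited, 70 and 115 after scaling, and 6 and 13 and 11 and 28 lncRNAs, with 29 lncRNAs rising by adjusted p alone as deposited. The 90 results for named or called lncRNAs on both scales include some that did not pass in the main fit. Of these 90, 59 passed there but no longer did with only the D0 and D7 libraries. Of 320 results for named mRNAs, among which the called lncRNA ENSSSCT00000057567 was also counted, 12 did so.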

Other observations

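The 13 protein-coding genes of the mitochondrial genome, a group chosen after their values were seen and so given no test as a group, were all measured. COX1, a core subunit of cytochrome c oxidase, had 3941 and 4618 FPKM at D0, 1387 and 1418 at D7, 1034 and 1236 at D28 and 3561 and 3431 at D180, with a log2 difference of -1.60 between D0 and D7 as deposited. The scaled values of COX1 were 9014 and 10150 at D0 and 2765 and 2631 at D7. They were 1032 and 1272 at D28 and 1240 and 1132 at D180, so the higher level at D180 was seen only as deposited. COX2 and COX3, the other core subunits, fell by 1.16 and 1.19, and ATP6 and ATP8, of the ATP synthase, fell by 0.98 and 1.00. ND2, ND3 and ND6, subunits of complex I, had differences of -0.67, -0.32 and -0.35 that did not pass as deposited (adjusted p of 0.072, 0.44 and 0.20), and after scaling ND2 and ND6 passed with -0.90 and -0.57 while ND3 did not. Both D7 pigs were below both D0 pigs for COX1.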
